A study of Mus musculus with 12 samples.

Results

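Tsx and Stra8, a pair of germline genes, were 2 of the 20409 protein-coding genes counted in ORFtag screens of mouse embryonic stem (mES) cells, and were chosen by name because their insertions were enriched in the cells sorted for an activated reporter. The values of the activator screen therefore chose both genes and are given as a description with no test. The sorted cells of the repressor screen and of the screen for posttranscriptional gene regulators (PTGR) played no part in the choice, and these screens were tested. Their unsorted cells were part of the merged background of the activator call, so the tests against that background are not fully separate from the choice. ORFtag is a retroviral cassette that combines a constitutive PGK promoter and a resistance marker with a tag-coding stretch that ends in a splice donor, so that a cell transcribes the gene downstream of the insertion as a fusion to the tag. The 12 libraries were maps of insertion sites, with 2 replicates each of sorted and unsorted cells in 3 screens.

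All cells were diploid mES cells derived from a haploid line, labelled wild-type, and every library came from a clonal reporter line after transduction with the cassette and selection with G418. The activator line carried the reporter 7xTetO-pMYLPF-Puro-IRES-GFP at an expression-stable locus on chromosome 15, the tag was TetR with a nuclear localization signal, and GFP-positive cells were sorted. The repressor line held pEF1-BFP-7xTetO-pPGK-Puro-IRES-GFP at that locus with the same tag, and GFP-negative cells were sorted. The PTGR line held a randomly integrated Puro-IRES-GFP-10xBoxB reporter, the tag was the λN peptide, and cells were sorted repeatedly for low GFP and then, after Cre had removed the boxB sites, for higher GFP. Each screen rests on 1 clone, and the cassette drives expression from its own promoter, so the data say nothing of whether mES cells express either gene. Insertions were mapped in DNA, and the cell type could not be checked against marker transcripts.

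Stra8 (stimulated by retinoic acid 8) is induced by retinoic acid in germ cells of both sexes as they enter meiosis, and with its partner Meiosin it binds and switches on genes of the meiotic programme. Tsx (testis-specific X-linked) lies in the X-inactivation centre beside Xist, is transcribed in testis, and has been treated both as a protein-coding gene and as a noncoding RNA. A regulator tethered to DNA through TetR can change transcription of a reporter, and one tethered to RNA through λN can change the fate of the transcript.

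In GRCm38 coordinates with GENCODE vM21 exons, Tsx (ENSMUSG00000031329) spans chrX:103414467-103424580 on the plus strand and has 1 transcript of 7 exons, with 144 coding codons. Stra8 (ENSMUSG00000029848) spans chr6:34920163-34939344 on the plus strand and has 4 transcripts, of which the one with the most exons has 10 and 393 coding codons. The exon assigned to an insertion is the first annotated acceptor, read along the cassette, that lies ahead of it. For all 340 insertions at Tsx and all 212 at Stra8 in the 12 libraries, the assigned exon began at an annotated vM21 exon start of the gene and lay on its strand. The splice acceptors at which these insertions were counted are shown because the results turn on which one was used, with the last 15 bases of the intron in lower case and the first 15 bases of the exon in capitals.
Tsx exon 2 (chrX:103416020-103416049, plus strand): ttgtttctttcgcagTTCTGGGATTCCAGC
Tsx exon 7 (chrX:103424249-103424278, plus strand): acctttcttccacagATGGTGCCATGAACC
Stra8 exon 2 (chr6:34920622-34920651, plus strand): ttttccttgaaacagGGGACTGCTACTGGG
Stra8 exon 3 (chr6:34927704-34927733, plus strand): tatattatgttgtagATTATAATGGCCACC
Stra8 exon 10 (chr6:34939087-34939116, plus strand): tttcctggtctgcagGAACCAGAGCCCCCA
Each of the 5 introns ends in the usual ag. In that transcript the start codon lies 6 bases into exon 3, and exon 2 is a noncoding exon of 418 bases. The acceptor of exon 2 is found in no other Stra8 transcript, whereas that of exon 3 is shared by 3 of the 4. In Tsx, 32 codons begin before exon 2 and 112 begin from it on, so that a fusion spliced at exon 2 would lack the protein's start.

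Insertions at Tsx were far more frequent in both activator sorted libraries than in any other library. Activator sorted replicate 1 held 87 insertions, or 50.0 per 10000 insertions of that library within 200 kb of an exon, and replicate 2 held 150, or 102 per 10000. The activator unsorted libraries held 16 (0.912 per 10000) and 38 (1.83 per 10000). The lowest sorted value therefore lay far above the highest unsorted one, while the 2 sorted replicates themselves differed by more than their counting error, as their 95% Wilson intervals of 40.6 to 61.6 and 87.0 to 120 per 10000 did not overlap. In the repressor screen both sorted libraries held 0 insertions at Tsx and the unsorted ones 14 (0.803 per 10000) and 12 (0.678 per 10000). In the PTGR screen the sorted libraries held 0 and 3 (0.512 per 10000) and the unsorted ones 16 (0.684 per 10000) and 4 (0.740 per 10000).

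Stra8 had the same order of activator libraries at a lower level. Activator sorted replicate 1 held 26 insertions (14.9 per 10000) and replicate 2 held 65 (44.2 per 10000), against 9 (0.513 per 10000) and 27 (1.30 per 10000) in the unsorted libraries. Sorted and unsorted libraries again did not overlap, and replicate 2 was the higher of each pair. In the repressor screen both sorted libraries held 0 insertions at Stra8 and the unsorted ones 12 (0.689 per 10000) and 10 (0.565 per 10000). In the PTGR screen the sorted libraries held 6 (0.984 per 10000) and 7 (1.20 per 10000), both below the unsorted ones with 29 (1.24 per 10000) and 21 (3.88 per 10000). The depth behind these values was 14705 to 60980 insertions per sorted and 54088 to 233799 per unsorted library.

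**Figure D1:**
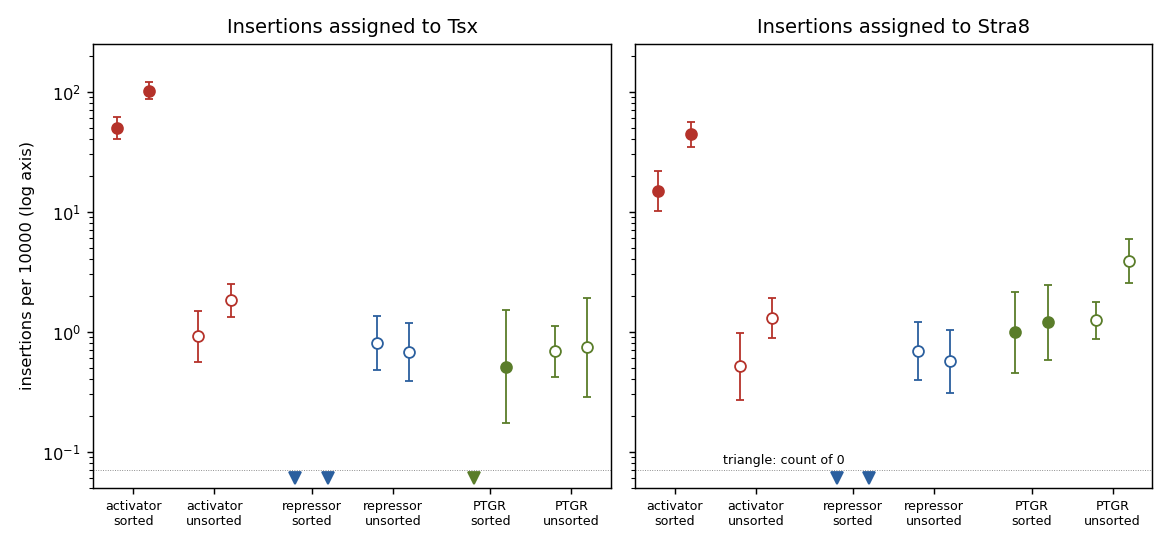
Insertions at Tsx (left) and Stra8 (right) per 10000 insertions of each library, on a log axis, with filled circles for sorted and open circles for unsorted libraries, 95% Wilson intervals as bars and triangles for a count of 0. The 2 activator sorted libraries stand above all other libraries for both genes, and both repressor sorted libraries are at 0.

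By group means, Tsx ranked from activator sorted (76.0 ± 36.8 per 10000, SD, n = 2) through activator unsorted (1.37 ± 0.649), repressor unsorted (0.741 ± 0.0885), PTGR unsorted (0.712 ± 0.0390) and PTGR sorted (0.256 ± 0.362) to repressor sorted at 0. The step from activator unsorted to repressor unsorted was smaller than the SD of the former, repressor and PTGR unsorted libraries overlapped, and PTGR sorted and repressor sorted shared the value of 0. For Stra8 the order was activator sorted (29.6 ± 20.7 per 10000, SD, n = 2), PTGR unsorted (2.56 ± 1.87), PTGR sorted (1.09 ± 0.150), activator unsorted (0.907 ± 0.557), repressor unsorted (0.627 ± 0.0873) and repressor sorted at 0. Here the neighbours from PTGR unsorted down to repressor unsorted each differed by less than the larger of their SDs. Over the 6 unsorted libraries, which formed the background, the mean was 0.941 ± 0.444 per 10000 for Tsx and 1.37 ± 1.28 for Stra8 (SD, n = 6).

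Summed over replicates, the activator sorted cells held 237 insertions at Tsx of 32102, and the background 100 of 1022126. That is a 75.5-fold higher frequency and a log2 odds ratio of 6.25 ± 0.17 (SE, counting error only), with 5.68 for replicate 1 and 6.72 for replicate 2 alone. At Stra8 the counts were 91 and 108, the ratio 26.8-fold and the log2 odds ratio 4.75 ± 0.21, with 3.82 and 5.39 for the replicates. With the activator unsorted libraries alone as background, the log2 odds ratio was 5.72 ± 0.22 for Tsx and 4.92 ± 0.28 for Stra8. At the study's limits (adjusted p below 0.001 and log2 odds ratio of at least 1 in a one-sided Fisher's exact test) 132 of 2842 tested genes, 4.64%, were called in the activator screen, and both genes were among them by choice. Among the 132, Tsx stood 13th by number of sorted insertions and 15th by log2 odds ratio, and Stra8 29th and 74th. Both genes were also well covered before sorting, with more background insertions than 85.4% (Tsx) and 86.4% (Stra8) of all genes, where the median gene had 15.

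The enrichment of both genes was on the strand that reads into the gene. When the strand of every insertion was reversed before assignment, activator sorted replicates 1 and 2 held 1 insertion each at Tsx, where the background held 67, and 1 each at Stra8, where the background held 95. The reversed log2 odds ratio was 0.02 ± 1.04 for Tsx and -0.48 ± 1.03 for Stra8 (SE, counting error). Both lay within 1 SE of no difference, and the large sense values had no counterpart on the other strand. Neither gene reached the 3 insertions needed for a call in this assignment, where 85 of 2706 tested genes, 3.14%, were called.

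At Tsx, all 237 activator sorted insertions were assigned to exon 2 (100%, 95% Wilson interval 98.4 to 100%), as were 96 of the 100 background insertions (96.0%, 90.2 to 98.4%). The other 4 background insertions were assigned to exon 7, and exons 3 to 6 were assigned none in any library. The stretch between the end of Chic1, the nearest gene upstream, and the start of Tsx is 18374 bp long and held 230 of the 237 sorted insertions. Another 6 lay in the annotated Chic1 gene body and 1 in Tsx exon 1. In that intergenic stretch the sorted cells held 230 insertions on the Tsx strand and 2 on the other (99.1%, 96.9 to 99.8%), and the background 95 and 59 (61.7%, 53.8 to 69.0%). Nearly all sorted insertions between these genes thus pointed towards Tsx, whereas background insertions used both strands.

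Sorted and background insertions were fullest at the same distances from exon 2, but the sets shared positions, as 41 of the 96 background insertions in front of exon 2 were at positions also found in activator sorted cells. Sorted insertions stood 1450 to 26016 bp before exon 2 with a median of 11641 bp, and the median distance of the background insertions from their exon was 11515 bp. In sorted replicates 1 and 2 the kilobase that starts 6000 bp before exon 2 held 15 and 25 insertions, with 12 in the background. The kilobase that starts 12000 bp before the exon held 20 and 28, with 17 in the background. These were the 2 fullest kilobases of each of the 3 sets. The 55 background insertions at positions not found in sorted cells had a median of 12088 bp, with 7 in each of these kilobases and 7 each in those that start 10000 and 14000 bp before the exon.

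**Figure D2:**
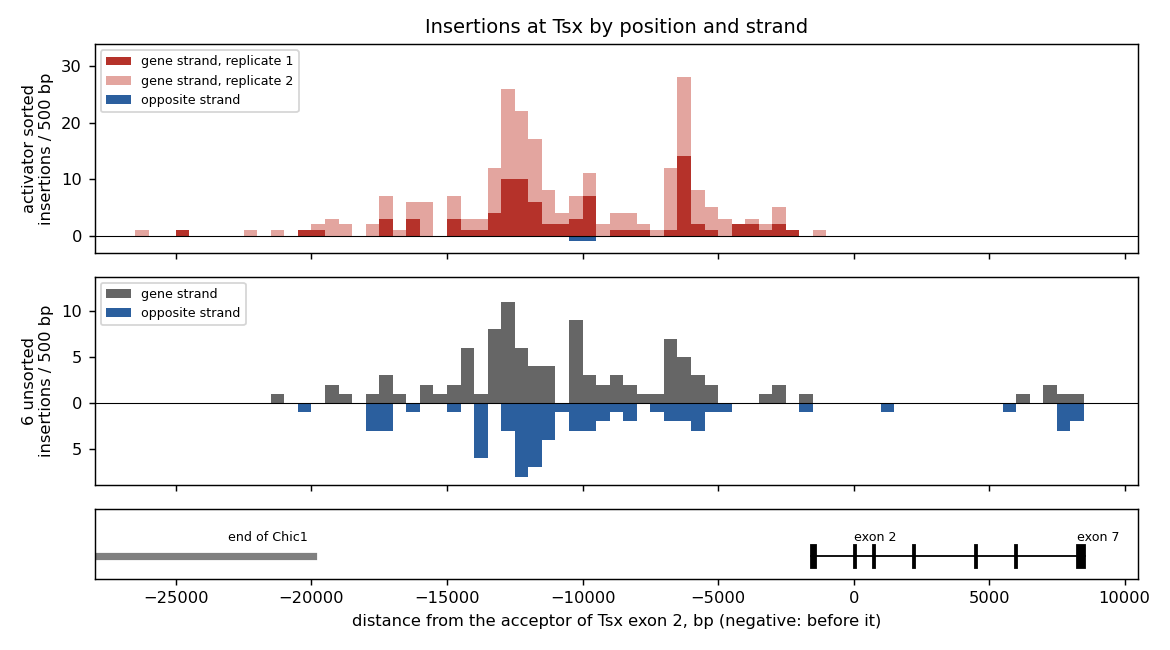
Insertions at Tsx in 500-bp steps of distance from the acceptor of exon 2, counted upward for the Tsx strand and downward for the opposite strand, in the 2 activator sorted libraries (top, replicates stacked) and the 6 unsorted libraries (middle), above the exons of Tsx and the end of Chic1. Sorted insertions fill the stretch between Chic1 and Tsx on the Tsx strand, whereas unsorted ones occur there on both strands.

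At Stra8 the position of the insertions differed between sorted and background cells. Of the 91 activator sorted insertions 86 were assigned to exon 3, which holds the start codon (94.5%, 87.8 to 97.6%), 4 to the noncoding exon 2 (4.40%, 1.72 to 10.8%) and 1 to exon 10. Of the 108 background insertions 20 were assigned to exon 3 (18.5%, 12.3 to 26.9%), 86 to exon 2 (79.6%, 71.1 to 86.1%) and 2 to exon 10. The share of exon 3 was 96.2% in sorted replicate 1, with 25 insertions, and 93.8% in replicate 2, with 61. Insertions in front of exon 3 were thus 137-fold more frequent in sorted than in background libraries (log2 odds ratio 7.10 ± 0.36). The ratio was 73.4-fold with sorted replicate 1 alone, 212-fold with replicate 2 alone, and 218-fold without activator unsorted replicate 2, which held 10 of the 20 background insertions there. Those in front of exon 2 were 1.48-fold more frequent (log2 odds ratio 0.57 ± 0.74, SE, counting error), a ratio within 1 SE of no difference. All 4 sorted insertions at exon 2 came from replicate 2, which alone gave a 3.23-fold ratio.

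**Figure D3:**
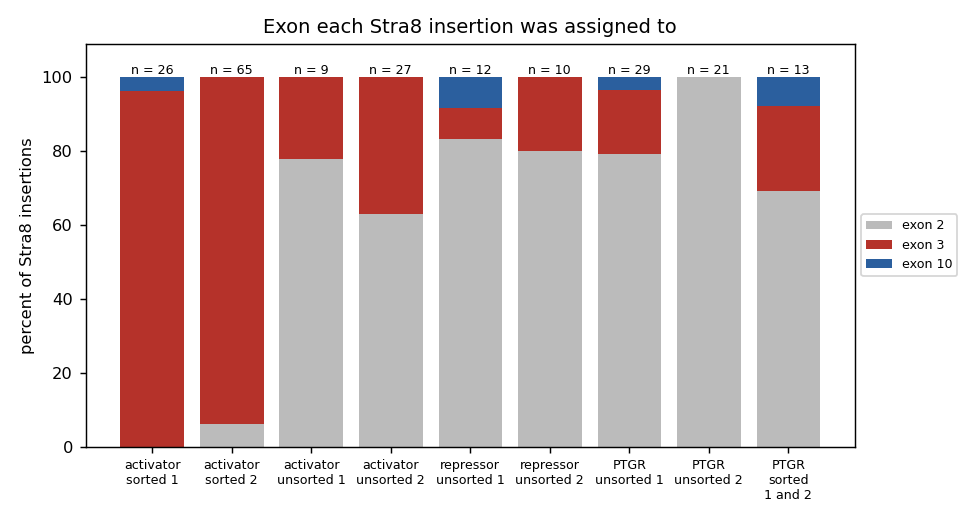
Share of the Stra8 insertions assigned to exon 2, exon 3 or exon 10, in percent, for each library with insertions there and for both PTGR sorted libraries together, with the number of insertions above each bar. Exon 3 takes nearly all insertions of the activator sorted libraries, and exon 2 takes most insertions of every unsorted library.

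By location, exon 2 and intron 2 of Stra8, a window of 7082 bp, held 86 sorted insertions on the gene strand and 1 on the other, and 20 and 10 in the background. The window of 9760 bp from the end of the neighbouring gene Wdr91 to Stra8 exon 2 held 4 sorted insertions on the gene strand and 1 on the other, and 76 and 71 in the background. The sorted insertions therefore lay mostly inside the gene, and the background insertions mostly upstream of it and on both strands alike. The insertion that was assigned to exon 10 lay in the last intron in sorted replicate 1, where 22 of the 393 codons begin from the acceptor on.

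The sequence between these acceptors differs in what a fusion would have to read through. Splicing at exon 2 places 424 bases, 418 of exon 2 and 6 of exon 3, before the Stra8 start codon, and all 3 reading frames hold stop codons that begin in these bases, 3, 6 and 5 of them, the first at base 55, 20 and 96. The frame with 6 stop codons is the one in register with the start codon. Splicing at exon 3 leaves 6 bases before the start codon, and the frame in register with it meets 0 stop codons there, while 1 of the other frames meets a stop codon that begins at base 5 and runs into the start codon. Whether this reading accounts for the position of the sorted insertions was not tested.

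**Figure D4:**
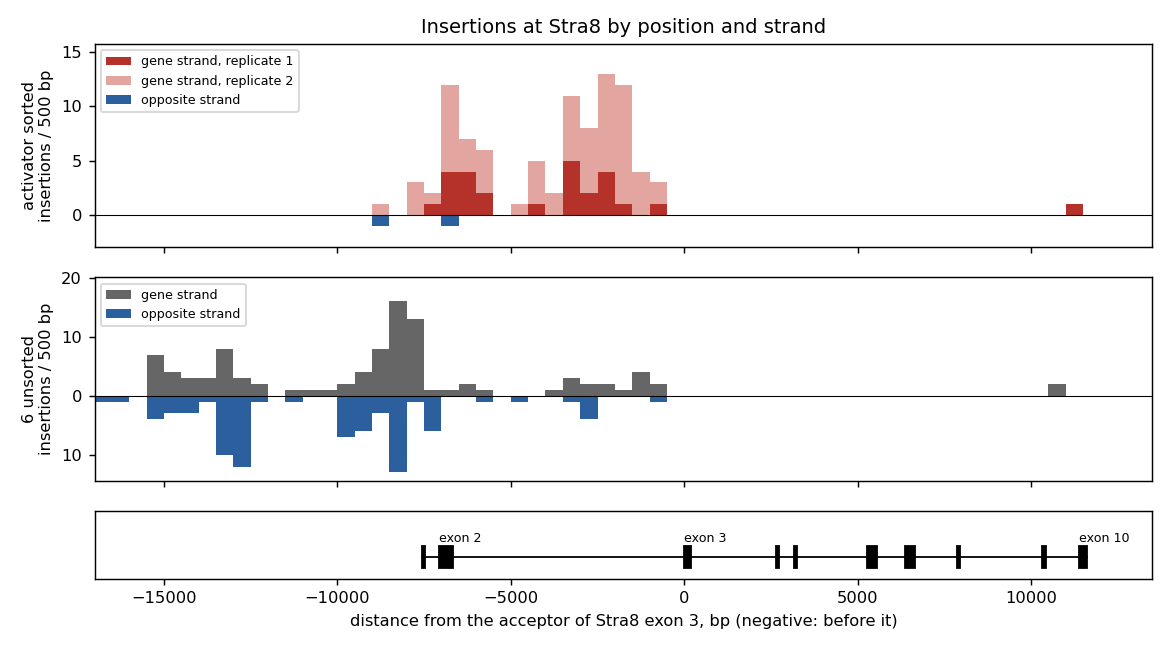
Insertions at Stra8 in 500-bp steps of distance from the acceptor of exon 3, counted upward for the Stra8 strand and downward for the opposite strand, in the 2 activator sorted libraries (top, replicates stacked) and the 6 unsorted libraries (middle), above the exons of Stra8. Sorted insertions lie mostly between exon 2 and exon 3, and most unsorted ones lie upstream of exon 2 on both strands.

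The sorted insertions of both genes were spread over many positions. The sorted insertions at Tsx made up 228 distinct positions over both replicates, of which 9 were found in both, and those at Stra8 made up 90, of which 1 was found in both. When positions within 10 bp of each other on the same strand of a library were merged, sorted replicates 1 and 2 kept 64 and 119 insertions at Tsx and 26 and 50 at Stra8. Within 10 bp of a replicate 2 insertion lay 32 of the 87 Tsx insertions of replicate 1 and 9 of the 26 Stra8 insertions. Cells that divided between transduction and sorting share a position, and the lists hold no count of reads or cells per position. Whether neighbouring positions were separate insertion events was not tested.

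Some sorted positions were also listed in unsorted libraries. At Tsx these were 9 of the 87 in sorted replicate 1 (10.3%) and 34 of the 150 in replicate 2 (22.7%), and 25 of the 34 were in activator unsorted replicate 2. At Stra8 these were 4 of 26 (15.4%) and 7 of 65 (10.8%), with all 7 in activator unsorted replicate 2. With such positions left out of the sorted counts, the log2 odds ratio was 6.21 for Tsx and 4.82 for Stra8. Of the 20 background insertions in front of Stra8 exon 3, 9 were at positions also found in activator sorted cells, as was 1 of the 86 in front of exon 2.

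The next genes on either side were not enriched in this way. Chic1, on the same strand upstream of Tsx, had 1 insertion in each activator sorted library and 121 in the background. Gm26992, whose start overlaps the 3′ end of Tsx, had 0 and 3 in the sorted libraries and 302 in the background, and Cdx4, a homeobox gene, had 5 and 4, with 372. Next to Stra8, Wdr91, on the other strand upstream, had 2 and 1 with 103 in the background, and Slc23a4, downstream, had 1 and 0 with 21. Chic1 and Slc23a4 had fewer than the 3 sorted insertions needed for a test. Gm26992, Cdx4 and Wdr91 could be tested in the activator screen and were not called, where 4.64% of all tested genes were.

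In the repressor screen neither gene was found among the sorted insertions. A count of 0 among 37470 allows up to 0.801 insertions per 10000, where the 6 unsorted libraries together held 0.978 at Tsx and 1.06 at Stra8, and the 2 repressor unsorted libraries 0.740 and 0.626. The pooled values of the screen's own unsorted libraries lay below that limit, so that a frequency lower than theirs was not detectable at this depth. Genes with fewer than 3 sorted insertions were not tested by Fisher's exact test, which called 192 of 2346 genes (8.18%) in this screen. In the reversed assignment both genes were also at 0 in both sorted libraries, and 125 of 2229 tested genes (5.61%) were called. In edgeR's quasi-likelihood test of 2 sorted against 2 unsorted libraries, the adjusted p was 0.373 for Tsx and 0.413 for Stra8 (unadjusted 0.0420 and 0.0586, two-sided). The same test called 53 of 12888 genes (0.411%) lower and 174 (1.35%) higher in sorted cells, and 84 lower and 166 higher with the replicate number as a block.

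In the PTGR screen both genes were tested and neither passed. Tsx, with 3 sorted insertions of 119540, had a log2 odds ratio of -1.96 ± 0.85 (adjusted p = 1, one-sided Fisher's exact test for enrichment over 9303 genes, of which 62, or 0.666%, were called). All 3 came from replicate 2. Stra8, with 13 sorted insertions, had a log2 odds ratio of 0.04 ± 0.42 (adjusted p = 0.940, same Fisher's exact test), which became -0.68 ± 0.45 with the PTGR unsorted libraries alone as background. In edgeR's two-sided test the adjusted p was 0.993 for both genes (unadjusted 0.0916 for Tsx and 0.0562 for Stra8). With the replicate number as a block, the same edgeR test gave an adjusted p of 0.996 for both (unadjusted 0.0589 for Tsx and 0.0219 for Stra8). Without the block, 35 of 13865 genes (0.252%) were called higher and 3 (0.0216%) lower. These counts were 37 and 6 with the replicate block, and 0 and 0 without PTGR unsorted replicate 1 or without replicate 2. Sorted PTGR insertions at Stra8 were assigned to exon 2 in 9 cases, to exon 3 in 3 and to exon 10 in 1, so that exon 2 led as in the background. The log2 odds ratio was -0.16 ± 0.51 at exon 2 and 0.36 ± 0.89 at exon 3. The exon 2 value turned on PTGR unsorted replicate 2, whose 21 insertions were all at exon 2, and was 0.17 ± 0.51 without it and -1.02 ± 0.53 with the PTGR unsorted libraries alone as background. In the reversed assignment the PTGR sorted cells held 7 insertions at Tsx and 11 at Stra8 (adjusted p = 0.996 and 0.956, one-sided Fisher's exact test over 9204 genes, 46 or 0.5% called).

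Other genes of germ cells and of the pathways around both members were examined in 5 lists with 72 genes, of which 69 were in the tables and 67 had background insertions. In the activator screen 41 of the 69 had no sorted insertion, 9 could be tested and 1 was called, where 4.64% of all tested genes were. The median log2 odds ratio of the 9 was -0.06, and that of all tested genes -0.14. In the repressor screen 1 of 7 was called (8.18% of all tested genes) and in the PTGR screen 1 of 33 (0.666%), with medians of 0.46 and 0.24 beside -0.39 and 0.14 over all tested genes.

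Among 12 germline transcription regulators, the gene called in the activator screen was Taf4b, a germ-cell subunit of the general factor TFIID, with 4 and 17 sorted insertions, 21 in the background and a log2 odds ratio of 4.99 ± 0.45. Without sorted replicate 2 it was not called. It also held 37 sorted insertions in the reversed assignment, unlike Tsx and Stra8. Dmrt1, a regulator of testis fate, had 3 and 0 sorted insertions with 132 in the background, and Prdm9, which marks sites of meiotic recombination, had 0 with 64. Dmrt1 was tested in the activator and PTGR screens and Prdm9 in the PTGR screen alone, and neither was called there. In the other screens they had too few sorted insertions for a test.

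Of 10 genes for meiotic entry and germ-cell RNA regulation 9 were in the tables. Stra8's partner Meiosin, listed as Gm4969, had 0 and 1 activator sorted insertions and 6 in the background, too few to be tested. Meioc, which keeps the meiotic programme going, was called in the PTGR screen with 19 and 16 sorted insertions, 117 in the background and a log2 odds ratio of 1.36 ± 0.28 (adjusted p = 0.000873, Fisher's exact test). With the PTGR unsorted libraries alone as background, no listed gene was called in that screen, nor was one with positions shared with unsorted libraries left out, or without either PTGR sorted library, either activator unsorted library or repressor unsorted replicate 2. Nanos3 and Ddx4, which protect germ cells, had the most background insertions of this list, 278 and 201, and 6 activator sorted insertions each, with log2 odds ratios of -0.54 and -0.07.

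None of the 24 genes for the meiotic chromosome axis, synapsis and recombination was called in any screen, but only 1, 0 and 8 of them had the 3 sorted insertions needed for a test in the activator, repressor and PTGR screens, where 4.64%, 8.18% and 0.666% of all tested genes were called. In the activator screen 20 of the 24 had no sorted insertion. Those with the most background insertions were Spo11, which makes the meiotic DNA breaks, with 133 and 3 and 1 activator sorted insertions, and Hormad2, an axis protein, with 97 and 1 and 1. Of the 16 retinoic acid genes, the nuclear receptor Rxra was called in the repressor screen with 21 and 5 sorted insertions, 253 in the background and a log2 odds ratio of 1.49 ± 0.30 (adjusted p = 0.000114, Fisher's exact test). It was no longer called without sorted replicate 1, or with positions shared with unsorted libraries left out. Rxra had 4 and 5 activator sorted insertions and the receptor Rarg, second by background with 221, had 1 and 1. Rxra was not called in the activator screen, and Rarg could not be tested there. The list around the X-inactivation centre had 8 of 10 genes in the tables and none called, with 2, 1 and 5 tested in the 3 screens beside the same shares. Its genes with the most background insertions were Cdx4 and Chic1.

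Over the 12 libraries, the genes whose pattern of log2(insertions per 10000 + 0.5) was most like that of Tsx were found by Pearson correlation among the 2841 other genes with at least 3 activator sorted insertions. They were Aff1, a transcription elongation scaffold (r = 0.994), Foxj2, a forkhead factor (0.992), Pprc1, a PGC-1-related coactivator (0.989), Wwtr1, the Hippo-pathway coactivator TAZ (0.988), and Ldb1, a LIM-domain-binding adaptor (0.987). All 5 were called in the activator screen, as were 4.64% of its tested genes. The activator sorted libraries entered the correlation, so these calls are no separate result. For Stra8 they were the forkhead factor Foxj3 (0.971), the neural crest factor Sox10 (0.971), Tead1, the DNA-binding partner of YAP (0.964), Yap1 itself (0.962) and Ino80b, a subunit of the INO80 remodeller (0.954). Of these, Sox10 was not called. Tsx and Stra8 correlated with each other at 0.928, which made Stra8 84th in the order for Tsx and Tsx 33rd in the order for Stra8. The 12 points share library, depth and sorting, and the 2 activator sorted libraries set most of each value.

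**Figure D5:**
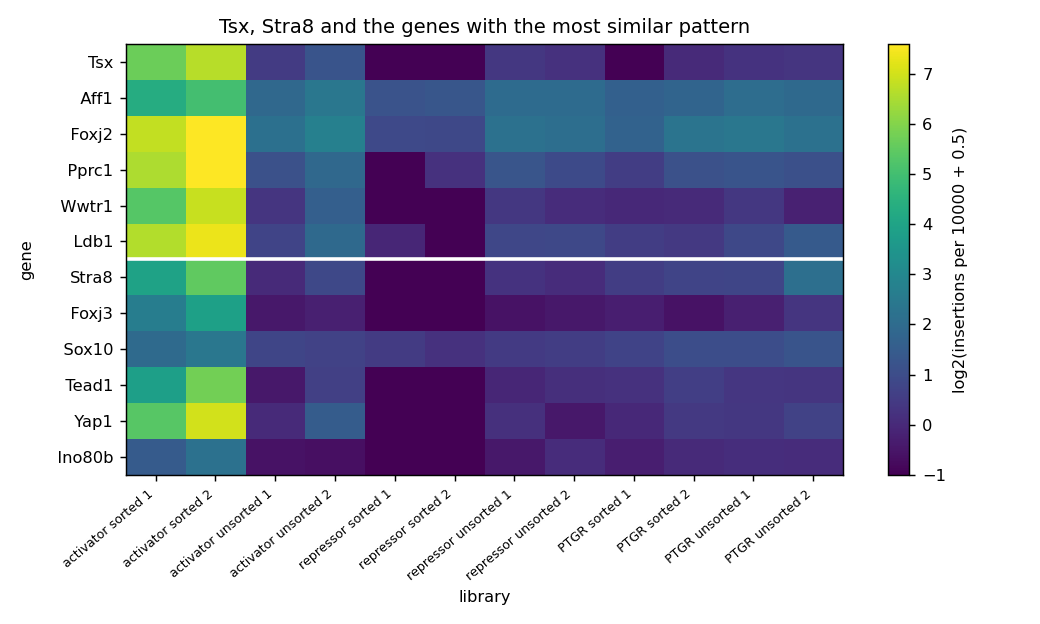
Log2(insertions per 10000 + 0.5) by library (columns) for Tsx with its 5 most similar genes (above the line) and Stra8 with its 5 (below). The activator sorted columns are the brightest in each row, and Tsx and Stra8 are at 0 insertions, the darkest shade, in both repressor sorted columns.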

How the data were processed

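Insertions were mapped by the study by inverse PCR and sequencing in 12 libraries. The authors trimmed reads with Trim Galore 0.6.0, aligned them to mm10 with Bowtie2, used SAMtools 1.9 to drop duplicates and poorly mapped reads, and gave each insertion the closest exon ahead of it among the non-first exons of protein-coding GENCODE transcripts. The deposited lists, 24 in all, give the position and the distance in bp to the exon, with the strand as mapped and reversed, and have no other unit. The authors also deposited pooled counts of insertions per gene with odds ratios, p-values and hit calls, of which the odds ratios, p-values and calls were not used. Their pooled sorted counts equal those computed here for both genes except Stra8 in the PTGR screen, where the authors' count is 15 and the distinct positions number 13.

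From the lists, each position (chromosome, coordinate, strand) was counted once per library if within 200 kb of its exon. In the repressor unsorted lists 50.0% of rows were repeats of another row. Summed sorted replicates were set against the 6 unsorted libraries with Fisher's exact test, one-sided for enrichment (SciPy 1.17.1), for genes with at least 3 sorted insertions, with Benjamini-Hochberg adjustment over all genes tested. edgeR 4.0.16 (quasi-likelihood, TMM, genes with at least 3 insertions over the 4 libraries, two-sided, adjusted p below 0.05) compared the 2 sorted and 2 unsorted libraries of the repressor and PTGR screens, with DESeq2 1.42.0 as an alternative. Both tests were tested on simulated data. On simulated repressor counts edgeR made too few calls at this filter, so a filter of 10 insertions was added after seeing the data. Exon positions came from GENCODE vM21 and sequence from GRCm38.p6. The replicates are biological per the study, which took unsorted cells from the transduced population before sorting the rest. Of the positions in PTGR sorted replicates 1 and 2, 19.5% and 6.98% were also in the unsorted library of the same number and 0.397% and 1.93% in the other. In the activator screen these shares were 5.17% and 19.2% against 2.35% and 1.39%, and in the repressor screen 8.50% and 8.72% against 10.0% and 5.47%. Same-numbered libraries were thus paired in the PTGR and activator screens, and the pairing of the repressor libraries was not settled. Deviations of gene counts from the group means correlated between same-numbered libraries at 0.27 (PTGR), 0.06 (activator) and -0.02 (repressor). Intervals (95% Wilson) and limits (3 counts for a count of 0) cover counting error only, since PCR copies and divided cells are not independent.

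The members and gene lists were chosen with earlier results of these data known. Named genes were both members, the 5 most similar genes of each, their neighbours, listed genes called in any screen and the 2 per list with the most background insertions. Alternatives changed background, distance, merging, row counting, minimum count, libraries left out, normalization and the replicate block.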

Additional observations from a re-analysis of the deposited data

Results flagged for a closer look

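Activator unsorted replicate 2 stood apart from the other 5 unsorted libraries at Tsx with 1.83 insertions per 10000, where the next highest was 0.912. Of its 38 insertions 25 were at positions also found in activator sorted cells, and the other 13 gave 0.626 per 10000. PTGR unsorted replicate 2 stood apart at Stra8 with 3.88 per 10000, where the next highest was 1.30. All of its 21 insertions were assigned to exon 2, and merging positions within 10 bp left 12, or 2.33 per 10000. The part of these positions in either value was not tested. The gap to the next library was 0.797 of the range at Tsx and 0.766 at Stra8. The limit used for this flag, 0.625, is passed by chance in about 1 in 20 groups.

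In the activator screen both sorted libraries lay above both unsorted libraries of that screen, by a mean of 74.6 per 10000 at Tsx and 28.7 at Stra8, which is how the genes were chosen. In the repressor screen both sorted libraries lay below both unsorted ones, by a mean difference of -0.741 per 10000 at Tsx and -0.627 at Stra8. The same held in the PTGR screen, with -0.456 at Tsx and -1.47 at Stra8. The Stra8 value rests largely on PTGR unsorted replicate 2 at 3.88 per 10000. PTGR unsorted replicate 1 held 1.24 per 10000 at Stra8, beside 0.984 and 1.20 in the sorted libraries. The repressor sorted counts were 0, which allows up to 0.801 per 10000. The pooled unsorted values of that screen, 0.740 at Tsx and 0.626 at Stra8, lay below that limit. A lower frequency in its sorted cells was thus not detectable at this depth. The PTGR sorted counts at Tsx were 0 and 3. The difference between screens was not tested.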

How the results depend on the processing

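In the activator screen the log2 odds ratio stayed between 5.68 and 6.72 for Tsx and between 3.82 and 5.39 for Stra8 over 14 alternatives each. The minimum of 10 sorted insertions, 1 of the 14, changes only which genes are tested and could not change either ratio. The repressor sorted count of 0 at both genes could not rise under any of the 14, since none added positions. Stra8 in the PTGR screen passed no test and had a log2 odds ratio near 0 whose sign turned under 5 of 14 alternatives: it was -0.68 with the 2 unsorted libraries of the same screen as background, and between -0.10 and 0.28 when single libraries were left out (-0.10 without sorted replicate 2, without activator unsorted replicate 1; -0.06 without repressor unsorted replicate 1; -0.09 without repressor unsorted replicate 2). Tsx in the PTGR screen ran from -2.09 to -0.93 and gave no value without sorted replicate 2, since replicate 1 held 0. Over the 3 screens 3 listed genes were called, 4 with at least 10 sorted insertions required, 2 with the unsorted libraries of the same screen as background, and 1 to 3 with single libraries left out. With positions shared with unsorted libraries left out, 1 was called, and Rxra and Meioc were not. Taf4b was not called without sorted replicate 2, Rxra was not called without sorted replicate 1, and Meioc was not called without either sorted replicate or 3 of the 6 unsorted libraries. The share of exon 3 among sorted Stra8 insertions was 93.8 to 96.2% with single replicates and 94.7% with positions within 10 bp merged. The reversed insertions of both genes together were 1.34 per 10000 activator sorted insertions, 1.21 and 1.51 in the single replicates. The 5 most similar genes depended on the measure: with a pseudocount of 0.1, 3 of 5 were shared for Tsx and 4 for Stra8, and with Spearman correlation 0 and 2.

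No edgeR alternative called either gene. With the replicate block the fitted log2 fold change of the repressor screen was -5.88 for Tsx and -5.65 for Stra8, and that of the PTGR screen -1.66 and -1.12. The block moved the repressor calls from 174 to 166 higher and 53 to 84 lower, and the PTGR calls from 35 to 37 and 3 to 6. Calls over all genes were less stable: in the repressor screen 198 higher and 88 lower with at least 10 insertions, 74 and 0 with no filter, 106 and 0 by library totals, 227 and 11 by DESeq2. In the PTGR screen they were 29 and 0, 34 and 3, 39 and 4, and 28 and 1. With single libraries left out, the repressor screen had 71 higher and 0 lower calls without sorted replicate 1, 83 and 0 without sorted replicate 2, 157 and 14 without unsorted replicate 1, and 151 and 21 without unsorted replicate 2. The PTGR screen had 29 and 0 or 26 and 0 without sorted replicate 1 or 2, and 0 calls without unsorted replicate 1 and without unsorted replicate 2 by edgeR (211 and 292 genes at an unadjusted p under 0.05). DESeq2 gave an adjusted p for Stra8 in the PTGR screen (1.00) and none for the other 3 results. With 0 sorted insertions a fitted fold change is no bound, and depth limits what the repressor screen can show.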
